A study of Mus musculus with 12 samples.

Results

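Expression of 10 genes of the endothelium and of angiogenesis, the growth of blood vessels, was followed in the tibialis anterior (TA), a leg muscle that lifts the foot, in mice before and after birth. The 10 genes were grouped by function, with earlier results of these data known, and were matched by symbol to the Ensembl identifiers of a count table that lists 55450 genes. All 10 were found, and all 10 were among the 19276 genes with enough counts to be tested. The TA came from WT mice of the 129Pas background at E18.5, shortly before birth, at 2 wks and at 7 wks, 4 mice per age, and each mouse gave 1 of the 12 libraries. No group carried an allele or received a treatment, so that age is the difference between the groups that the labels give. RNA was isolated from pieces of whole muscle, which hold muscle fibers, vessels, connective tissue and blood. A lower value in such a sample can come from fewer cells of a type or from less RNA in each cell, and these cannot be told apart.

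Endothelial cells line every blood vessel. *Pecam1* and *Cdh5* encode adhesion proteins that hold these cells together at their junctions, and VE-cadherin, the product of *Cdh5*, is the main cadherin there. VEGF-A, encoded by *Vegfa*, is secreted by the surrounding tissue, muscle fibers included, and acts on endothelial cells through the receptor tyrosine kinase KDR (VEGFR2). FLT1 (VEGFR1) binds VEGF-A tightly but signals weakly and can act as a trap for it, and it is also the receptor of VEGF-B, which KDR does not bind. TEK (TIE2) is the receptor of the angiopoietins. Angiopoietin 1, made largely by cells next to the endothelium, activates TEK and stabilizes vessels, whereas angiopoietin 2, made by endothelial cells, can oppose it, and TIE1 is a related receptor that modulates TEK. Skeletal muscle gains most of its fiber size after birth, and its capillaries run along the fibers.

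The promoters of the receptors and of the VEGF ligands are shown because members with a shared signalling role changed to different extents with age. Whether these sequences bear on the changes was not tested. RefSeq start-site windows were given for 6 of the 10 genes, and the 250 bases before the start site of each were located by a single exact match in GRCm39. They lie at chr5:76139116-76139365 (minus strand) for *Kdr*, chr5:147662822-147663071 (minus strand) for *Flt1*, chr4:94627276-94627525 (plus strand) for *Tek*, chr4:118347047-118347296 (minus strand) for *Tie1*, chr17:46343304-46343553 (minus strand) for *Vegfa* and chr19:6965020-6965269 (minus strand) for *Vegfb*. Each is written 5′ to 3′ on the strand of the gene, ending at the base before the start site. Capitals mark CAGGAA or CCGGAA, which hold the GGAA core bound by ETS factors, GGGCGG, the GC box, and TATAAA, the TATA box, each read on either strand.
Kdr: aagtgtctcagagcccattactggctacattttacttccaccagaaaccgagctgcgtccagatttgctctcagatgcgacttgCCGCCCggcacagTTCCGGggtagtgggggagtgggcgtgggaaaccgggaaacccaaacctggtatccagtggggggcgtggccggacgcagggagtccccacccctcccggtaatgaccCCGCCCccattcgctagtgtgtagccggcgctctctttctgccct
Flt1: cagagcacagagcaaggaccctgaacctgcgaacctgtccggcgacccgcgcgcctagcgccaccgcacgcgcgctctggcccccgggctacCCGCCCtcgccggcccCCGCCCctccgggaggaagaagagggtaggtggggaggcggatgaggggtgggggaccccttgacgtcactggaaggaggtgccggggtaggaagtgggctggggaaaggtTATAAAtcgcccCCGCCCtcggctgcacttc
Tek: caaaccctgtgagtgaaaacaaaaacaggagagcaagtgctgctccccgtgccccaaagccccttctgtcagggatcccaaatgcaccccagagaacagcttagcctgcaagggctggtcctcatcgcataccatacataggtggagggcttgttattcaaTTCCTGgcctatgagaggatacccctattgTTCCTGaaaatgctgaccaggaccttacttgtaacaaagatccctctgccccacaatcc
Tie1: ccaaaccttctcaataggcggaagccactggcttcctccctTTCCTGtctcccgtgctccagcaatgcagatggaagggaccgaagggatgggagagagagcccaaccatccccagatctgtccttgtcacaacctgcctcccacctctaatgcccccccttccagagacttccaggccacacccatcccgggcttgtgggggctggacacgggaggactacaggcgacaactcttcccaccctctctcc
Vegfa: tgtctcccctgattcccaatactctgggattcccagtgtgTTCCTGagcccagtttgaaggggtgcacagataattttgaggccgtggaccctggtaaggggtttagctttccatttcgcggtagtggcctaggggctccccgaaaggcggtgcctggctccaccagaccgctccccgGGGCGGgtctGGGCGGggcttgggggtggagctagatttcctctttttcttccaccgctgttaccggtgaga
Vegfb: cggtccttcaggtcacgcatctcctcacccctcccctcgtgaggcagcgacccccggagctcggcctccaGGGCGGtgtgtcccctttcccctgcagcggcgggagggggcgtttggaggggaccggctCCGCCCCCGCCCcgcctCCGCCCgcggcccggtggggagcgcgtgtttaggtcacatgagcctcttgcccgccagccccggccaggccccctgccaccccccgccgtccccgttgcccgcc
The *Tek* and *Tie1* windows held CAGGAA, at 2 places and 1 place, and no GC box, whereas *Kdr* and *Flt1* held 2 and 3 GC boxes. Only CAGGAA and CCGGAA were searched for the GGAA core. GGAA in other contexts, which the *Flt1* and *Tie1* windows among others also hold, is not marked. *Kdr* also held CCGGAA at 1 place, and *Vegfa* held CAGGAA at 1 place beside 2 GC boxes. TATAAA was found in the *Flt1* window, 31 bases before the start site, and in no other of the 6. The *Vegfb* window held 4 GC boxes, of which the boxes at 121 and 115 bases before the start site touch each other. Of 32851 RefSeq windows of the same length, 35.1% held CAGGAA or CCGGAA, 32.7% held GGGCGG and 12.4% held TATAAA, so these letters are common and a match describes the sequence only. The start sites are those of RefSeq and differ from the ends of the gene spans given below. The *Kdr* window lies inside the span of its gene, and the *Tek* and *Tie1* windows lie mostly inside theirs. A second *Vegfa* window, further inside the gene, is not printed.

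The libraries held 63018968 to 123449246 counts, and between 322 and 36715 counts fell on each of the 10 genes in each library. The 20 most abundant genes of the series took 8.4% to 11.3% of the counts at E18.5 and 32.2% to 37.7% after birth. For this reason the levels are given as CPM, counts scaled to library size, after TMM normalization, which sets the bulk of genes to little change on average. With TMM the median gene of the whole test moved by -0.09 (log2) in the interval before 2 wks and by -0.03 from 2 to 7 wks, and with scaling to the total count by -1.02 and -0.38. A log2 fold change scaled to the total count is therefore lower for every gene, and values relative to the median gene hardly differ between these scalings. For *Pecam1* at 2 wks against E18.5, the change relative to the median gene was 0.95 with either. The summed CPM of 6 muscle fiber genes (*Ckm*, *Acta1*, *Mylpf*, *Tnnt3*, *Casq1* and *Ttn*) was between 12130 and 21370 at E18.5 and between 114700 and 149800 after birth, so the defining genes of muscle fibers were present in every library.

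At 2 wks 6 of the 10 genes were higher than at E18.5 and 0 were lower in edgeR, whose quasi-likelihood p-values, adjusted over all 19276 genes by the method of Benjamini and Hochberg, were held to a threshold of 0.05. The 6 were *Pecam1*, *Cdh5*, *Flt1*, *Tie1*, *Vegfa* and *Vegfb*. Among all tested genes 31.5% were higher and 34.2% were lower. None of the 10 fell at an unadjusted p under 0.05 either (0 genes), and DESeq2 also called 6 higher and 0 lower. With scaling to the total count the split was 4 higher and 3 lower (*Tek*, *Angpt1* and *Angpt2*) at 2 wks, 2 and 4 from 2 to 7 wks, and 3 and 4 over the whole span. The shares of all genes in this paragraph are with TMM and cannot be set beside this split. With total counts the median gene itself moved by -1.02 to 2 wks. Between 2 and 7 wks *Flt1* and *Angpt1* rose and *Pecam1* and *Cdh5* fell, 2 genes in each direction, beside 13.5% of all genes higher and 13.9% lower. Over the whole span, from E18.5 to 7 wks, 6 genes were higher (*Cdh5*, *Flt1*, *Tie1*, *Vegfa*, *Vegfb* and *Angpt1*) and *Angpt2* alone of the 10 was lower, with 34.3% of all genes higher and 37.1% lower. The 10 genes had a median change of 1.03, 0.06 and 0.87 in these comparisons, against -0.09, -0.03 and -0.09 over all tested genes. The 2 intervals share the 2-wk libraries. A contrast of its own, the change to 2 wks minus the change from 2 to 7 wks, passed the threshold for 6 of the 10 genes, positive for *Pecam1*, *Cdh5*, *Tie1*, *Vegfa* and *Vegfb* and negative for *Angpt1*, and for 38.4% of all genes in either direction.

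**Figure D1:**
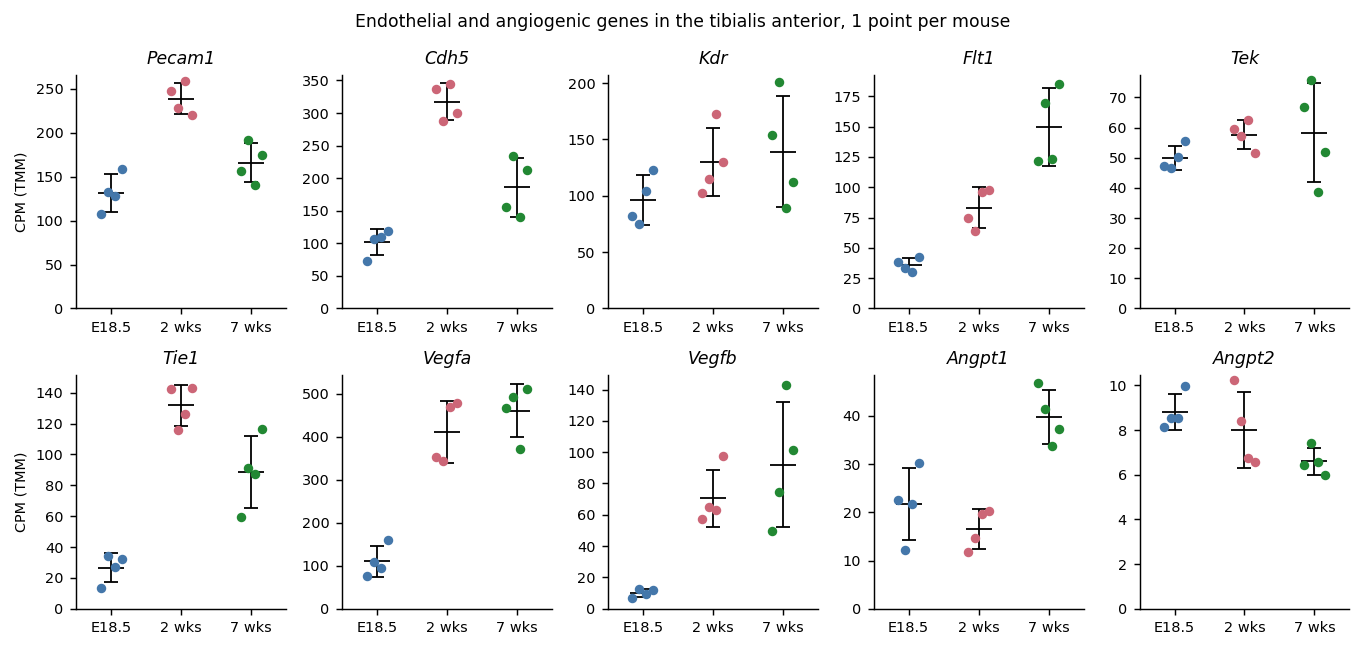
CPM after TMM normalization (vertical axis, from 0) of each of the 10 genes at E18.5, 2 wks and 7 wks; each point is a mouse, long bars are means and error bars are SD (n = 4). With TMM *Flt1* rises at each age without overlap between ages, and with total counts its rise to 2 wks is not called. *Pecam1* (with TMM, not with total counts) and *Cdh5* are highest at 2 wks, and *Vegfa* and *Vegfb* rise before 2 wks.

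With TMM the junction genes were highest at 2 wks, which for *Pecam1* did not hold with total counts. In the 4 mice of each age, *Pecam1* (ENSMUSG00000020717, chromosome 11, 106543689 to 106641454 of GRCm39, minus strand) was at 107, 133, 128 and 159 CPM at E18.5, at 248, 229, 259 and 219.8 CPM at 2 wks, and at 157, 192, 140.1 and 175 CPM at 7 wks. All mice of 2 wks were above all mice of the other ages. *Pecam1* rose by 0.86 on the log2 scale to 2 wks (SE, the standard error, 0.15, edgeR adjusted p = 0.00025) and fell by 0.53 from 2 to 7 wks (SE 0.15, adjusted p = 0.0209). With total counts the first of these was lost and turned to -0.07 (edgeR adjusted p = 0.716, means of 219.3 and 209.3 CPM at E18.5 and 2 wks), and the fall was -0.87. The fall missed the threshold without mouse 1 or 3 of 2 wks or mouse 1 of 7 wks (adjusted p = 0.0517, 0.0574 and 0.0534, edgeR). At 7 wks against E18.5 the log2 difference was 0.33 with TMM (edgeR adjusted p = 0.0638) and -0.94 with total counts (edgeR adjusted p = 9.65e-05).

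*Cdh5* (ENSMUSG00000031871, chromosome 8, 104828231 to 104871143, plus strand) was at 72.8, 107, 109.7 and 119 CPM at E18.5, at 337, 288, 345 and 299.7 CPM at 2 wks, and at 155, 234, 141 and 213 CPM at 7 wks. The ages did not overlap. *Cdh5* rose 3.11-fold to 2 wks (log2 fold change 1.64, SE 0.20, edgeR adjusted p = 1.02e-05) and fell by 0.77 on the log2 scale from 2 to 7 wks (adjusted p = 0.0102). Both calls held with total counts (log2 0.71 and -1.12) and with each library left out. The higher level at 7 wks than at E18.5 (log2 0.86, edgeR adjusted p = 0.0012) turned to -0.41 with total counts (edgeR adjusted p = 0.074). The count ratio of *Cdh5* to *Pecam1*, which no scaling of the libraries can change, was 0.773 ± 0.0768 before birth, 1.33 ± 0.0482 at 2 wks and 1.11 ± 0.127 at 7 wks (SD, n = 4).

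The VEGF receptors parted with age. *Flt1* (ENSMUSG00000029648, chromosome 5, 147498414 to 147662826, minus strand) was at 38.3, 33.5, 30.4 and 42.6 CPM at E18.5, at 75.0, 63.7, 96.3 and 97.7 CPM at 2 wks, and at 121, 169, 123 and 185 CPM at 7 wks. No mouse of a younger age reached the lowest mouse of the next. *Flt1* rose by 1.20 on the log2 scale to 2 wks (SE 0.19, edgeR adjusted p = 0.000103) and by 0.85 from 2 to 7 wks (SE 0.19, adjusted p = 0.00547), which makes it the gene of the 10 that rose in both intervals. The difference between the intervals was 0.35 and did not pass the test (SE 0.33, edgeR adjusted p = 0.414). With total counts the rise to 2 wks was 0.26 and was not called (edgeR adjusted p = 0.182), while the later rise of 0.52 was.

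*Kdr* (ENSMUSG00000062960, chromosome 5, 76093487 to 76139884, minus strand) was at 82.2, 74.6, 104 and 123 CPM at E18.5, at 103, 115, 173 and 129.7 CPM at 2 wks, and at 154, 201, 88.9 and 112 CPM at 7 wks. The ages overlapped throughout, and the 4 mice of 7 wks held both the highest level and one below 2 of the E18.5 mice. No comparison of ages passed the test for *Kdr*, with log2 differences of 0.44 to 2 wks (SE 0.25, edgeR adjusted p = 0.142), 0.10 from 2 to 7 wks (adjusted p = 0.803) and 0.53 over the whole span (adjusted p = 0.0713). Without mouse 4 of E18.5 or mouse 3 of 7 wks the last of these passed (0.68 and 0.71, edgeR adjusted p = 0.0388 and 0.0194). With total counts it was -0.74 and passed in the opposite direction (edgeR adjusted p = 0.0131).

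Within a library the ratio of *Flt1* to *Kdr* counts rose at each age. It was 0.466, 0.45, 0.29 and 0.346 in the E18.5 mice, 0.731, 0.555, 0.557 and 0.754 in the 2-wk mice, and 0.788, 0.842, 1.39 and 1.65 in the 7-wk mice. No ages overlapped, and in 2 of the 4 mice of 7 wks *Flt1* had more counts than *Kdr*. The log2 ratio rose by 0.75 (SE 0.20) and then by 0.79 (SE 0.29), with all 16 of 16 pairs of mice higher in each interval (exact permutation test, two-sided p = 0.0286, the smallest that 4 mice against 4 allow, and 0.0454 after Benjamini-Hochberg adjustment over 27 tests of 9 ratios). With the trend of each library over the GC content of transcripts removed, an alternative called removal of the GC trend here, the differences were 0.66 and 0.79.

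The TIE receptors also differed. *Tie1* (ENSMUSG00000033191, chromosome 4, 118328385 to 118347261, minus strand) was at 13.2, 34.4, 26.8 and 31.9 CPM at E18.5, at 142, 116, 126 and 143 CPM at 2 wks, and at 59.2, 91.5, 87.2 and 116 CPM at 7 wks. All mice after birth were above all E18.5 mice, and mouse 1 of E18.5 was lowest by a wide margin. *Tie1* rose 4.96-fold to 2 wks (log2 fold change 2.31, SE 0.27, edgeR adjusted p = 8.33e-06), and without that mouse the log2 fold change was 2.08. *Tie1* transcripts had the highest GC content of the 10 (57.8%), and with the GC trend removed the rise was 1.23 on the log2 scale and still passed. From 2 to 7 wks *Tie1* changed by -0.57 (edgeR adjusted p = 0.117), which passed without mouse 1 of E18.5 (edgeR adjusted p = 0.0292), with the 8 libraries of those ages alone (-0.61, adjusted p = 0.0295) and with total counts (-0.92, adjusted p = 0.0165).

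*Tek* (ENSMUSG00000006386, chromosome 4, 94627291 to 94763224, plus strand) was at 47.2, 46.7, 50.2 and 55.7 CPM at E18.5, at 59.4, 57.1, 62.7 and 51.5 CPM at 2 wks, and at 66.9, 75.8, 38.5 and 52.0 CPM at 7 wks. The ages overlapped, and the 7-wk mice held the highest and the lowest level. The log2 difference was 0.21 to 2 wks (SE 0.18, edgeR adjusted p = 0.323), 0.02 from 2 to 7 wks (adjusted p = 0.96) and 0.22 over the whole span (adjusted p = 0.278). Without mouse 3 of 7 wks the last was 0.39 and passed (edgeR adjusted p = 0.0306). With total counts *Tek* fell by 0.72 to 2 wks (edgeR adjusted p = 0.00384) and by 1.05 to 7 wks (edgeR adjusted p = 0.000171).

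The ratio of *Tie1* to *Tek* was 0.279, 0.736, 0.534 and 0.574 at E18.5, 2.39, 2.02, 2.01 and 2.78 at 2 wks, and 0.885, 1.21, 2.26 and 2.23 at 7 wks. Every mouse after birth was above every E18.5 mouse, and the 7-wk mice fell into a lower and a higher pair. The log2 ratio rose by 2.19 to 2 wks (SE 0.32, 16 of 16 pairs higher, exact permutation test, adjusted p = 0.0454), of which 0.95 was left with the GC trend removed. The change from 2 to 7 wks, -0.58, did not pass (two-sided exact permutation test, adjusted p = 0.281). *Tek* per *Pecam1* count dropped by 0.66 on the log2 scale to 2 wks, with 0 of 16 pairs higher, and rose by 0.51 from 2 to 7 wks, with 16 of 16 pairs higher (exact permutation test, adjusted p = 0.0454 for each).

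**Figure D2:**
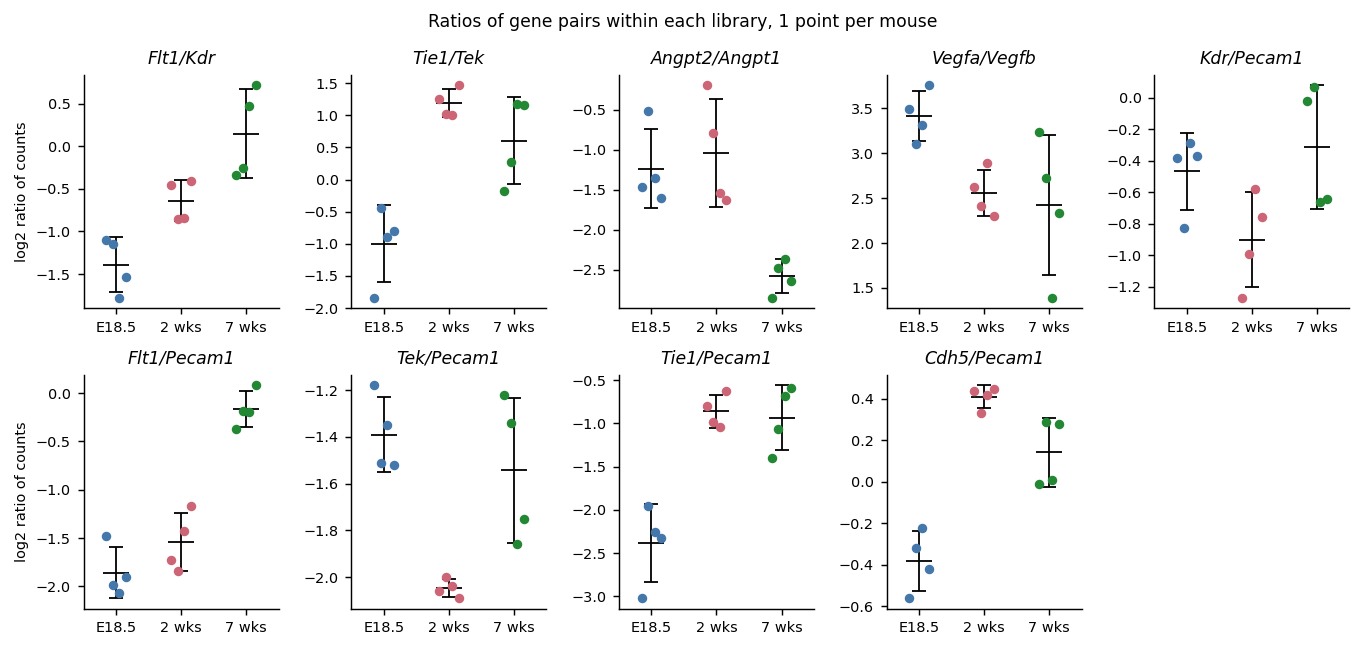
Log2 ratio of counts (vertical axes) of 9 gene pairs within each library at E18.5, 2 wks and 7 wks; each point is a mouse, long bars are means and error bars are SD (n = 4). *Flt1/Kdr* rises at each age, *Tie1/Tek* rises before 2 wks, and *Angpt2/Angpt1* is low at 7 wks, between 0.138 and 0.194 before the logarithm.

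Both VEGF ligands rose before 2 wks, and neither passed the test after it. Over the whole span *Vegfb* had the largest fold change of the 10 genes with TMM, 9.0-fold, and *Vegfa* (4.18-fold) and *Flt1* (4.14-fold) came next. *Vegfa* (ENSMUSG00000023951, chromosome 17, 46327919 to 46343309, minus strand) was at 77.0, 108, 94.7 and 161 CPM at E18.5, at 354, 343, 469 and 479.5 CPM at 2 wks, and at 467, 493, 373 and 511 CPM at 7 wks. The postnatal ages overlapped each other and neither overlapped E18.5. *Vegfa* rose by 1.90 on the log2 scale to 2 wks (SE 0.22, edgeR adjusted p = 8.51e-06) and by 0.96 with total counts, called in both. From 2 to 7 wks the difference was 0.16 (SE 0.22, edgeR adjusted p = 0.61), and the change in the earlier interval exceeded it by 1.74 (adjusted p = 0.00289).

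*Vegfb* (ENSMUSG00000024962, chromosome 19, 6958447 to 6965127, minus strand) was at 6.85, 12.6, 9.48 and 11.9 CPM at E18.5, at 57.3, 64.7, 63.1 and 97.4 CPM at 2 wks, and at 49.4, 74.4, 143 and 101 CPM at 7 wks. Again only E18.5 stood apart, and the 7-wk mice spread over a wider range than the 2-wk mice. *Vegfb* rose 6.92-fold to 2 wks (log2 fold change 2.79, SE 0.31, edgeR adjusted p = 5.11e-06), and the 0.38 from 2 to 7 wks did not pass (adjusted p = 0.352). The count ratio of *Vegfa* to *Vegfb* lay between 8.57 and 13.5 before birth, between 4.92 and 7.43 at 2 wks and between 2.62 and 9.45 at 7 wks. Its fall of the log2 ratio to 2 wks, -0.86, was seen in all pairs (0 of 16 higher, exact permutation test, adjusted p = 0.0454), while at 7 wks against E18.5 it was -0.99 with 1 of 16 pairs higher (exact permutation test, adjusted p = 0.0857).

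Of the angiopoietins, *Angpt1* rose from 2 to 7 wks. *Angpt1* (ENSMUSG00000022309, chromosome 15, 42288058 to 42540417, minus strand) was at 22.6, 12.1, 21.7 and 30.3 CPM at E18.5, at 11.7, 14.6, 19.7 and 20.3 CPM at 2 wks, and at 46.7, 41.3, 33.8 and 37.2 CPM at 7 wks. All 7-wk mice were above all others, and E18.5 and 2 wks overlapped. *Angpt1* changed by -0.39 to 2 wks (SE 0.25, edgeR adjusted p = 0.18) and rose by 1.26 from 2 to 7 wks (SE 0.25, adjusted p = 0.00258). The earlier difference depended on the processing, since it passed as a fall without mouse 2 of E18.5 (-0.58, edgeR adjusted p = 0.0229) and with total counts (-1.33, adjusted p = 0.000142) and was 0.10 with the GC trend removed. The later rise was called in each of these fits, with total counts at 0.93. The higher level at 7 wks than at E18.5 turned to -0.40 with total counts. *Angpt1* had the lowest transcript GC content of the 10, 39.5%.

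*Angpt2* (ENSMUSG00000031465, chromosome 8, 18739202 to 18791603, minus strand) was the lowest of the 10 at every age per kilobase. It was at 8.14, 8.55, 8.53 and 9.99 CPM at E18.5, at 10.3, 8.42, 6.76 and 6.57 CPM at 2 wks, and at 6.46, 7.42, 6.55 and 5.97 CPM at 7 wks. The 7-wk mice lay below the E18.5 mice, and the 2-wk mice spanned both. Its log2 difference was -0.14 to 2 wks (SE 0.17, edgeR adjusted p = 0.486) and -0.28 from 2 to 7 wks (SE 0.17, adjusted p = 0.243), and with total counts both were called, at -1.05 and -0.64 (edgeR adjusted p = 0.000249 and 0.0235). *Angpt2* was lower at 7 wks than at E18.5 by 0.42 on the log2 scale (SE 0.17, edgeR adjusted p = 0.0402). This call was lost in 6 of 12 fits that each left out a library (adjusted p = 0.058 to 0.11, edgeR), namely mouse 3 or 4 of E18.5, mouse 2 of 2 wks and mouse 1, 3 or 4 of 7 wks, and with the GC trend removed (-0.33, adjusted p = 0.0874). Of the exons of *Angpt2*, 3387 bp lie opposite exons of *Mcph1*, a gene of the other strand at 9.64, 6.51 and 8.35 CPM on average at the 3 ages, and the strand setting of the counting is not given in the sources used here, so where strand was not used the reads of both genes cannot be told apart. The ratio of *Angpt2* to *Angpt1* was 0.447 ± 0.174 before birth, 0.530 ± 0.257 at 2 wks and 0.168 ± 0.0242 at 7 wks (SD, n = 4), and its log2 value changed by -1.54 from 2 to 7 wks, with 0 of 16 pairs higher (exact permutation test, adjusted p = 0.0454).

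**Figure D3:**
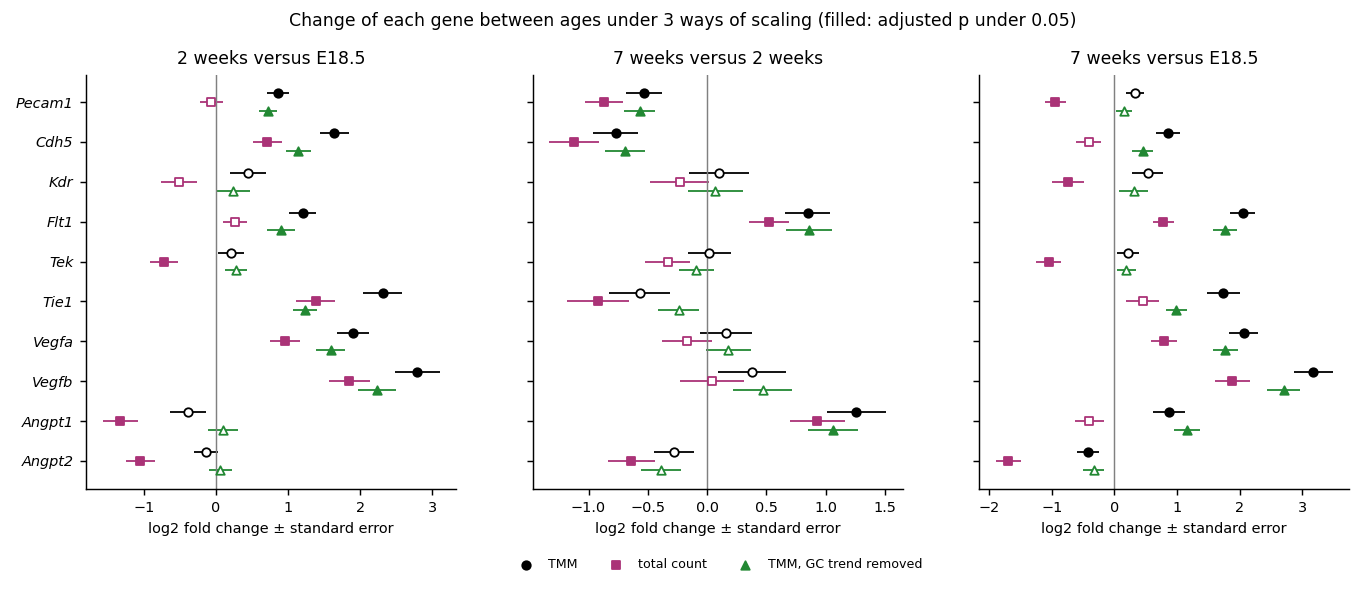
Log2 fold change ± standard error (SE, horizontal axes) of each of the 10 genes in 3 comparisons of ages, with TMM (circles), total counts (squares) and TMM with the GC trend removed (triangles); filled symbols passed edgeR's test at an adjusted p of 0.05. *Vegfb*, *Vegfa*, *Tie1*, *Cdh5* and *Flt1* (not called with total counts) are above 0 at 2 wks against E18.5 under every scaling shown. *Pecam1*, *Kdr*, *Tek*, *Angpt1* and *Angpt2* lie on both sides of 0.

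Levels of different genes were compared per kilobase of exon, as CPM per kb. *Vegfa* was highest at each age, at 25.6 ± 8.44, 95.7 ± 16.9 and 107 ± 14.3 (SD, n = 4), followed by *Cdh5* at 23.3 ± 4.62, 72.5 ± 6.38 and 42.4 ± 10.2. At E18.5 these genes overlapped between mice, and after birth they did not. *Pecam1*, *Kdr* and *Tek* came next at E18.5, at 13.2, 10.4 and 8.32, and neighbours in this order overlapped. *Tie1* moved from 5.31 before birth to 26.3 at 2 wks, where only *Vegfa* and *Cdh5* were higher but it overlapped with *Pecam1* at 23.9. *Vegfb* moved from 3.14 to 21.7 and 28.2. *Flt1* was above *Angpt2* alone at E18.5, at 2.65, and above *Tek*, *Angpt1* and *Angpt2* at 7 wks, at 11, where it overlapped with *Kdr* at 15.1 and *Tek* at 9.71. *Angpt2* stayed lowest, at 1.84, 1.67 and 1.38. With the length of the longest transcript in place of all exons, *Vegfa* stayed first and *Angpt2* last, *Pecam1* was above *Cdh5* at E18.5, and *Tie1* had rank 7 instead of 4 at 7 wks. *Flt1* then had rank 7 instead of 9 at E18.5, above *Angpt1* and *Vegfb* as well, and rank 6 instead of 7 at 7 wks, above *Tie1*. At 2 wks *Pecam1* was then above *Tie1*, at 49 ± 3.65 against 29 ± 2.92 (SD, n = 4).

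Other genes of the vessel wall and its signals were read from lists. Beside every list here and below stand the same shares of all tested genes with TMM. These were 31.5% higher and 34.2% lower at 2 wks, and 13.5% and 13.9% from 2 to 7 wks. Of 24 other endothelial genes, 22 rose and 1 fell from E18.5 to 2 wks, with a median log2 fold change of 1.67, and from 2 to 7 wks 0 were higher and 7 lower, with a median of -0.54. *Nos3*, the endothelial nitric oxide synthase, rose most to 2 wks (2.66, edgeR adjusted p = 1.73e-05), and *Calcrl*, a receptor component for adrenomedullin, fell by 1.19 (edgeR adjusted p = 0.00213). *Cldn5*, a tight junction protein, fell most after 2 wks, by 1.44 (edgeR adjusted p = 0.0105). With total counts 15 were higher and 2 lower at 2 wks, and 17 were lower after it. *Pecam1* and *Cdh5* thus passed in the same direction as the 22 genes that rose and the 7 that fell, while *Flt1* rose after 2 wks, when 0 of the 24 did (0 also at an unadjusted p under 0.05 and with DESeq2, and 1 with the GC trend removed).

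Of 10 genes of sprouting vessels and tip cells, the leading cells of a sprout, 7 rose and 2 fell to 2 wks (median 0.80), and 8 fell and 0 rose from 2 to 7 wks (median -1.34, 0 higher also at an unadjusted p under 0.05 and with DESeq2). *Apln*, the ligand of the apelin receptor, was at 24.5 ± 4.40 CPM before birth, 39.5 ± 12.7 CPM at 2 wks and 3.19 ± 0.746 CPM at 7 wks (SD, n = 4), a late fall of 3.63 on the log2 scale (edgeR adjusted p = 5.11e-06). *Pdgfb*, which recruits mural cells, rose by 1.99 to 2 wks, and *Kcne3*, a potassium channel subunit, fell by 2.26. With total counts 3 were higher and 2 lower at 2 wks, and 10 were lower after it.

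Among the other VEGF ligands and receptors, 1 of 6 rose and 2 fell to 2 wks. *Flt4*, the receptor of VEGF-C and VEGF-D, rose by 1.24 (edgeR adjusted p = 0.000253), a call that neither total counts nor removal of the GC trend kept (0 of 6 higher in each). *Vegfd* was at 10.3 ± 2.32, 2.26 ± 0.321 and 4.90 ± 0.279 CPM at the 3 ages (SD, n = 4), a fall by 2.19 followed by a rise of 1.12 (edgeR adjusted p = 6.73e-07 and 0.000907). *Pgf*, whose product binds FLT1 as VEGF-B does, fell by 0.62 to 2 wks (edgeR adjusted p = 0.0413). The count of lower genes was 1 without mouse 1 or 2 of E18.5, mouse 1, 2 or 4 of 2 wks, or mouse 1, 2 or 4 of 7 wks. *Nrp2*, a co-receptor, fell by 1.08 after 2 wks (edgeR adjusted p = 0.00464), and *Nrp1*, the co-receptor of KDR, changed by 0.12 and 0.17 without passing.

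Of 12 genes of oxygen sensing and VEGF regulation 4 rose and 4 fell to 2 wks, near the shares of all tested genes (31.5% and 34.2%). After 2 wks 5 rose and 0 fell (0 also at an unadjusted p under 0.05 and with DESeq2). Without mouse 1 or 2 of 2 wks, or mouse 1 or 2 of 7 wks, 2 rose after 2 wks, and with total counts 2 did as well. *Epas1*, which encodes the oxygen-regulated factor HIF-2α that is abundant in endothelium, went from 31.7 ± 8.84 CPM before birth to 263 ± 42.7 CPM at 2 wks and 299.7 ± 66.7 CPM at 7 wks (SD, n = 4), a log2 rise of 3.05 to 2 wks (edgeR adjusted p = 2.64e-07). *Hif3a*, another member of that family, went the other way, from 141 ± 34.6 to 6.86 ± 3.37 and 5.14 ± 2.54 CPM (SD, n = 4), and fell by 4.37 on the log2 scale to 2 wks (edgeR adjusted p = 8.28e-07). *Egln3*, a prolyl hydroxylase that marks HIF proteins for removal, fell by 1.24 and then rose by 1.37.

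Of 7 angiogenesis inhibitors 3 were lower and 1 was higher at 2 wks, and 2 were lower (4 without mouse 1 of 7 wks) and 0 higher after it (0 also at an unadjusted p under 0.05 and with DESeq2). *Thbs2*, a secreted thrombospondin, fell by 3.10 to 2 wks (edgeR adjusted p = 1.2e-05), from 224 ± 52.0 to 26.1 ± 5.56 CPM (SD, n = 4), and *Col18a1*, the source of endostatin, fell by 1.82 from 2 to 7 wks (edgeR adjusted p = 0.000837). *Serpinf1* was the one that rose, by 1.13, and did not pass under scaling to the total count or removal of the GC trend (0 of 7 higher in each).

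**Figure D4:**
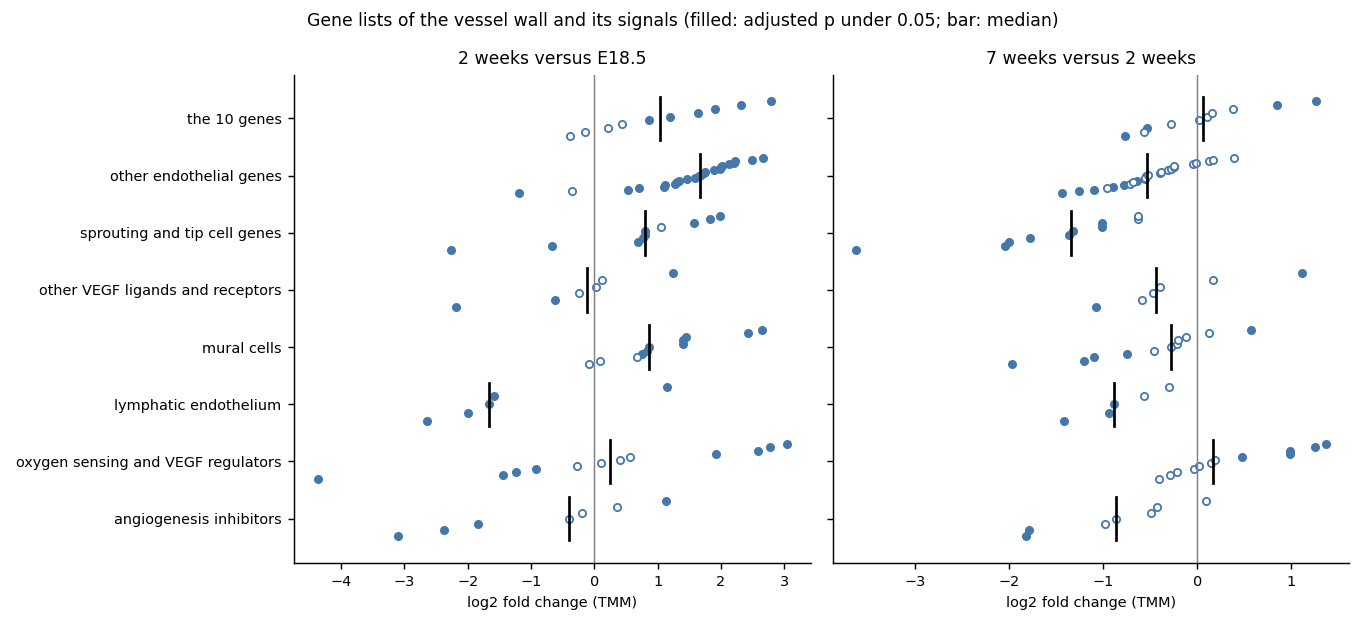
Log2 fold change with TMM (horizontal axes) of the 10 genes and of 7 other lists at 2 wks against E18.5 and at 7 wks against 2 wks; each point is a gene, filled points have an adjusted p under 0.05 and bars are list medians. The medians of the 24 other endothelial genes are 1.67 and -0.54, and those of the 10 sprouting and tip cell genes are 0.80 and -1.34.

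Markers of other cells moved with age as well. Of 11 mural cell genes, which mark the pericytes and smooth muscle around vessels, 8 rose and 0 fell to 2 wks (0 also at an unadjusted p under 0.05 and with DESeq2), *Rgs5* most with 2.65, and their summed CPM was 722 to 978 before birth, 1535 to 2167 at 2 wks and 1241 to 1675 at 7 wks. With the GC trend removed 6 rose and 4 fell. Of 5 genes of lymphatic endothelium 4 fell and 1 rose to 2 wks with TMM. *Lyve1* changed most, by -2.65, and *Ccl21a* was the one that rose, by 1.15 (edgeR adjusted p = 0.0103). The sum of the 5 genes went from 73.8 to 109 CPM before birth down to 21.5 to 32.1 and then to 10.4 to 21.0. Before birth *Lyve1* alone gave 42.5 CPM of a mean sum of 91.5 CPM. The 24 other endothelial genes summed to 419 to 520.2 CPM before birth, 1185 to 1414 CPM at 2 wks and 849 to 1183 CPM at 7 wks.

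The 6 genes of dividing cells summed to 394 to 576 CPM before birth, then to 78.7 to 157 and to 4.62 to 15, and 5 and then 6 of them were lower. The 6 macrophage genes summed to 162 to 203, 77.2 to 110.3 and 21.2 to 69.6 CPM, with 2 lower and 1 higher to 2 wks (2 higher without mouse 2 of E18.5) and 5 lower after it. The 7 fibroblast genes summed to 4638 to 8871, 3280 to 4885 and 835 to 2893 CPM, with 4 lower and 1 higher to 2 wks and 2 lower after it (5 without mouse 1 of 7 wks). The 7 red blood cell genes summed to 242 to 1026, 146 to 756 and 91.9 to 129.7 CPM, with 2 and then 5 lower (3 without mouse 1 or 2 of 2 wks or mouse 1, 3 or 4 of 7 wks). Platelets also carry *Pecam1*. Of 6 platelet genes 3 could be tested and 1 was lower in each interval (2 after 2 wks without mouse 1 or 2 of E18.5), their sum was 8.72 to 18.1, 6.53 to 9.17 and 2.47 to 3.73 CPM, and *Gp9* and *Gp1bb* had at most 3 counts. The 6 muscle fiber genes all rose to 2 wks and 1 rose after it (0 without mouse 1 or 2 of 2 wks). The part of these cells in the values of the 10 genes was not tested.

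The profile of each gene over the 12 libraries was compared with those of 11848 other genes whose mean log2 CPM was 1 or more, by the root mean square difference of log2 CPM after each gene was centered on its mean. The closest gene was *Pcdh12*, a vascular protocadherin, for *Pecam1* (0.151), *Sh3tc2* for *Cdh5* (0.154), with *Erg*, an endothelial ETS factor, next (0.185), *Slc23a2* for *Kdr* (0.231), with *Cav2* and *Nrp1* next (0.236 and 0.244), *Arhgap31* for *Tek* (0.151) and *Arhgap27* for *Tie1* (0.166). *Flt1* was closest to *Myom1*, a sarcomere gene (0.205), which went from 578 to 1363 and 2388 CPM. *Vegfa* was closest to *Mfsd2b* (0.142), *Vegfb* to *Macrod1* (0.147) and the mitochondrial enzyme gene *Ethe1* (0.159), *Angpt1* to *Vps13a* (0.141) and *Angpt2* to *Wdr13* (0.120). Among the 10 genes the closest pair was *Kdr* and *Tek* (0.24), and the most distant was *Vegfb* and *Angpt2* (1.62). These are descriptions over libraries that share age and depth.

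**Figure D5:**
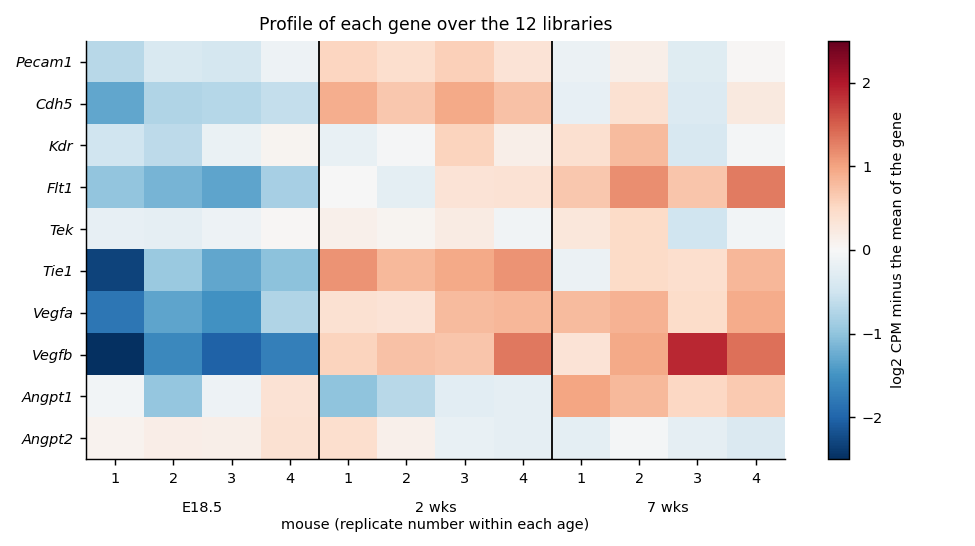
Log2 CPM of each of the 10 genes minus its mean over the 12 libraries (color scale), with the 4 mice of each age side by side. The lowest values of the plot are those of *Vegfb* and *Tie1* in mouse 1 of E18.5. *Angpt1* is high in all 4 mice of 7 wks, and *Kdr* and *Tek* vary as much within 7 wks as between ages.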

How the data were processed

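Libraries were made from TA RNA of WT mice with a stranded mRNA kit and sequenced in paired ends. The submitters' processing notes name bcl2fastq 2.17.1.14, cutadapt 1.10, STAR 2.5.3a and HTSeq 0.6.1p1 and the build mm10, while the methods name GRCm39. The authors deposited raw counts of reads per gene, not normalized, and the annotation release and strand setting are not given in the sources used here. Gene positions and lengths are from GENCODE vM39 on GRCm39.

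Counts were normalized with TMM and tested by age alone, over all 12 libraries together, by the quasi-likelihood test of edgeR 4.0.16 (R 4.3.3, limma 3.58.1) after filterByExpr, which removed 36174 genes. Benjamini-Hochberg adjustment ran over 19276 genes (threshold 0.05). The biological coefficient of variation was 0.279, so at 63018968 to 123449246 counts per library the spread between mice exceeded counting error (chi-square per degree of freedom 31.2 to 524 between replicates). Log2 ratios of gene pairs (0.5 added to each count) were compared with two-sided exact permutation tests over 70 regroupings. GC content was known for 98.7% of tested genes. Alternatives were scaling to total counts or upper quartiles, omission of the 20 most abundant and the 37 mitochondrial genes, DESeq2 1.42.0, tests without a filter or with a minimum of 10 counts per library, a replicate block, fits of just the 8 libraries of 2 ages, a log2 fold change beyond 1 (glmTreat), removal of the GC trend, and each library left out. The GC trend of ratios and these settings for the gene lists were added after seeing the data. Scripts were tested on simulated data.

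The 10 genes and all lists were chosen with earlier results of these data known. Named from each list were the genes with the largest and smallest log2 fold change among those past the threshold, and genes that bear on 1 of the 10. The most similar genes were those with the smallest root mean square difference. Promoter windows come from RefSeq (GRCm38.p6 table) and were located in GRCm39.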

Additional observations from a re-analysis of the deposited data

How the results depend on the processing

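The counts of the 10 genes called (6, 4 and 7 for 2 wks against E18.5, 7 wks against 2 wks and 7 wks against E18.5, and 6 for the difference between the intervals) stayed within 1.5 times under all alternatives except a log2 fold change beyond 1 (glmTreat), which called 0 between 2 and 7 wks (0 at an unadjusted p under 0.05), 4 between E18.5 and 7 wks and 3 for the difference between the intervals. Total counts left the counts at 7, 6 and 7 but moved the split to 4 higher and 3 lower, 2 and 4, and 3 and 4. With each library left out, 6 to 7, 3 to 5, 6 to 9 and 6 to 6 genes were called.

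Signs turned with total counts for *Pecam1* (-0.07 at 2 wks and -0.94 at 7 wks against E18.5), *Cdh5* (-0.41 at 7 wks against E18.5), *Kdr* (-0.51, -0.23 and -0.74 in the 3 comparisons and -0.28 for the intervals), *Tek* (-0.72, -0.33, -1.05 and -0.39), *Flt1* (-0.25 for the intervals), *Vegfa* (-0.17 after 2 wks), *Angpt1* (-0.40 at 7 wks against E18.5) and *Angpt2* (-0.40 for the intervals). By construction this scaling lowers every gene, as the median of all genes shows. With upper-quartile scaling *Kdr* (-0.01) and *Tek* (-0.09) turned after 2 wks and *Tek* (-0.02) at 7 wks against E18.5. *Tek* after 2 wks also turned with at least 10 counts in every library (-0.03), with the 8 libraries alone (-0.02) and with the GC trend removed (-0.09), which turned *Angpt1* (0.10) and *Angpt2* (0.06) at 2 wks against E18.5 and ended the call of the interval difference of *Angpt1* (edgeR adjusted p = 0.0597). Apart from total counts, none of these values passed the threshold, and the cause was not tested. With a library left out, *Kdr* ranged from -0.13 to 0.27 and *Tek* from -0.14 to 0.17 after 2 wks, and the interval difference of *Angpt2* from -0.10 to 0.32. The 17 ratios called kept their direction with the GC trend removed and with each library left out. In these settings only the direction was compared, and no test was run. With the GC trend removed *Tie1/Tek* rose by 0.95 instead of 2.19 to 2 wks, *Tie1/Pecam1* by 0.51 instead of 1.52 and *Cdh5/Pecam1* by 0.41 instead of 0.79.

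Same-numbered replicates of different ages did not deviate together (r from -0.099 to 0.235 over genes, and -0.242 to 0.2 for other numbers), so the numbers do not pair them. With the replicate block 6, 4, 6 and 6 genes were called, *Angpt2* at 7 wks against E18.5 missed the threshold (-0.42, edgeR adjusted p = 0.055) and *Tek* after 2 wks was -0.01. No group of 4 mice held a value far enough from the rest to be singled out, in 30 sets of a gene and an age.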

Other observations

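The 7-wk mice differed among themselves, and not in receptors alone. Mouse 3 of 7 wks had the lowest *Kdr* (88.9 CPM) and *Tek* (38.5 CPM) and the highest *Vegfb* (143 CPM) of its age. It also had the lowest *Pecam1* (140.1 CPM), *Cdh5* (141 CPM) and *Vegfa* (373 CPM). Mouse 2 had the highest *Kdr* (201 CPM), *Tek* (75.8 CPM), *Pecam1* (192 CPM) and *Cdh5* (234 CPM). *Flt1* and *Tie1* were instead lowest in mouse 1 and highest in mouse 4. *Nrp1*, the co-receptor of KDR, spanned 40.7 to 120.3 CPM at 7 wks, against 63.2 to 84.3 CPM at E18.5. *Flt1* to *Kdr* ratios of 1.39 and 1.65 belonged to mice 3 and 4, and those of 0.788 and 0.842 to mice 1 and 2. The labels give no difference between these mice.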
